A study of Homo sapiens with 2 samples.

Results

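Clusters in introns of protein-coding genes were taken from YB-1 PAR-CLIP data of HEK293T wt cells, an established line that derives from human embryonic kidney. A cluster is a stretch of the genome where the sequenced reads carried T-to-C changes at a high-confidence position. A cluster was included when it was not on the mitochondrial genome, overlapped the span of a protein-coding gene of GENCODE release 44 on the same strand, and overlapped no exon of a protein-coding, pseudogene, lncRNA or small RNA gene on that strand. In Rep.A, 82 of 1382 clusters met this rule (5.93%), and in Rep.B 144 of 2011 (7.16%). Clusters of both replicates that overlapped on 1 strand, by 1 base or more, were joined into 1 site, which gave 173 sites in 156 host genes. Of these sites, 53 were found in both replicates, 29 in Rep.A only and 91 in Rep.B only. In all, 14 sites lay within the span of more than 1 protein-coding gene, and each was given 1 of these genes as host.

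The study compared nothing within this assay: there was 1 condition with 2 independent replicates and no control library. 4-Thiouridine, a uridine analogue that crosslinks to bound protein under UV light, was given to the wild-type cells (100 µM, 16 h) before UV exposure (365 nm, 0.15 J/cm2). After lysis, RNase T1, an enzyme that cuts behind G, shortened the RNA, and a polyclonal antibody recovered YB-1 with its fragments. The labels give the molecule as cytoplasmic RNA. Both samples come from 1 cell line, so the p-values below measure the spread between clusters of a library and not between lines or animals.

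YB-1 is an RNA-binding protein with a cold shock domain that packages mRNA in the cytoplasm and is also found in the nucleus. Introns are removed from the transcript in the nucleus, and most are degraded there. They hold many sequences that are copies of other RNAs, among them pieces of ribosomal and mitochondrial sequence, tRNA genes, and retrocopies of spliced mRNAs that were written back into the genome by reverse transcription.

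Of the intron sites found in both replicates, 15 had a sequence that occurs once in the genome. Of these, 11 had no match to ribosomal, mitochondrial, tRNA or copied mRNA sequence within the limits used here, and 10 of the 11 ended in G. These 10 are shown because each has 1 exact position in hg38. Copies with a mismatch were not counted for this choice. The other of the 11, in RGS7BP, ended in T and is shown further on, as are MAP3K3 and AGBL5, which are among the 15, match ribosomal RNA and a tRNA gene and did not end in G either. The sequences have the tetramers CATC and CACC in capitals, read 5′ to 3′ on the RNA strand (T for U), with hg38 positions.
HP1BP3 (chr1:20756183-20756206, minus strand): actaCACCaaaactcaacaaatcg
ITGB1 (chr10:32902807-32902836, minus strand): tctctCACCCACCaaactataccttccttg
BTAF1 (chr10:91970678-91970699, plus strand): ccaaaccatatCATCctacatg
GMDS (chr6:1793309-1793330, minus strand): taacctctatctctatccctag
PMF1-BGLAP (chr1:156222121-156222149, plus strand): ccattccttccCATCtCACCaaccccaag
ABCF2-H2BK1 (chr7:151211285-151211306, minus strand): taaCATCctcttttcccccaag
TMEM39B (chr1:32095331-32095353, plus strand): tacttcCACCcaatccataccag
TRAPPC12 (chr2:3423139-3423160, plus strand): aacCACCctcctttccaactag
CCDC40 (chr17:80064285-80064302, plus strand): gcttgcctgggtgtcacg
MAPKAP1 (chr9:125541757-125541777, minus strand): tatcCATCATCactcataatg

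The sites with the highest coverage were of another kind. They are shown beside the RNA they resemble: the site in an intron of MAP3K3 with the stretch of the 45S ribosomal RNA gene RNA45SN1 nearest to it, the differing bases in capitals, and sites in introns of HFM1, RYR2 and NOTCH2NLC whose letters are all in that RNA.
MAP3K3 (chr17:63629521-63629541, plus strand): actggcttgtggcAgccaagT
RNA45SN1: actggcttgtggcGgccaagC
HFM1 (chr1:91387358-91387380, minus strand): tcagaaaagttaccacagggata
RYR2 (chr1:237603258-237603283, plus strand): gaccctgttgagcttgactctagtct
NOTCH2NLC (chr1:149459507-149459527, plus strand): gaaactctggtggaggtccgt

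Each of the 173 sites was placed in 1 class by its sequence, in a fixed order of criteria (a run of A, ribosomal, mitochondrial, tRNA, copy of an mRNA, other repeated sequence, present once). The classes were drawn up after the sequences had been seen, so they are described by counts and no test was made between them. The largest class was sequence present once in hg38 with none of the other features, with 68 sites, of which 11 were found in both replicates. Ribosomal RNA sequence accounted for 30 sites, 16 of them in both replicates. Sequence that matched the mRNA of another gene, called a copy of an mRNA here, accounted for 19 sites, 16 in both replicates. The remaining sites were 16 shorter than 18 bases and of no other class (4 in both), 12 with a run of A (none in both, 11 in Rep.B only), 12 in other repeated sequence (1 in both), 10 in mitochondrial sequence (3 in both) and 6 in a tRNA gene or tRNA sequence (2 in both). The sites were 10 to 58 bases long, with a median of 22.

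**Figure D1:**
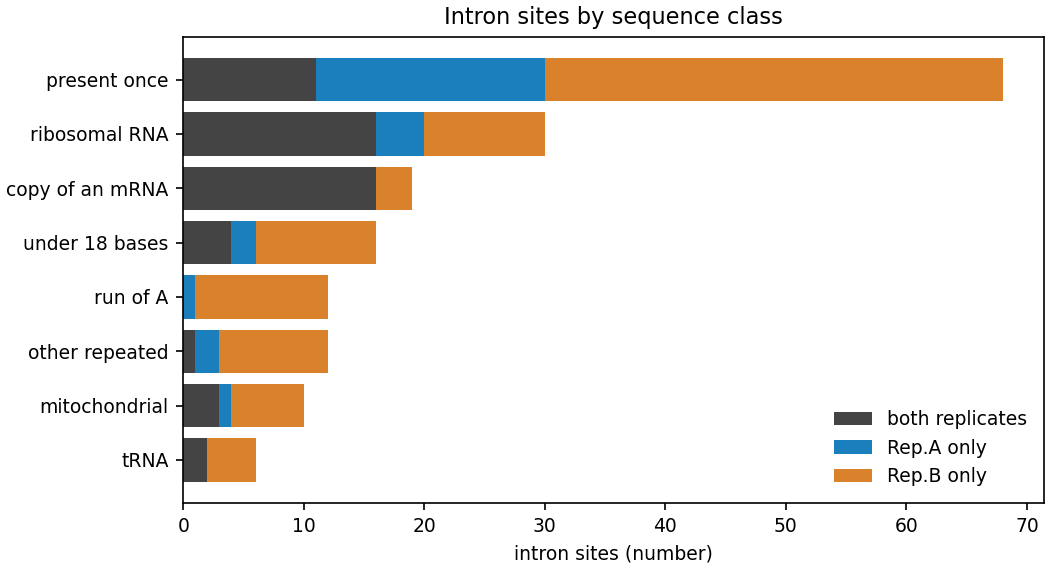
Number of intron sites (horizontal axis) in each sequence class (vertical axis), with bar segments for sites found in both replicates, in Rep.A only and in Rep.B only. Sequence present once had the most sites, 68, and 11 of them were in both replicates, whereas 16 of 19 copies of an mRNA and 16 of 30 sites of ribosomal sequence were in both.

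Intron clusters were found again less often than clusters in exons of protein-coding genes. In Rep.A, 53 of 82 intron clusters (64.6%, 95% Wilson interval 53.8 to 74.1) overlapped a cluster of Rep.B, against 627 of 735 exon clusters (85.3%, 82.6 to 87.7; Fisher's exact test, two-sided, adjusted p = 2.13e-05). In Rep.B, the shares were 53 of 144 (36.8%, 29.4 to 44.9) and 627 of 942 (66.6%, 63.5 to 69.5; Fisher's exact test, adjusted p = 6.3e-11). Adjusted p-values are Benjamini-Hochberg values over the 16 tests of intron against exon clusters, with a threshold of 0.05. Among clusters with a mean coverage of at least 10 reads per base, the difference in Rep.A (intron minus exon) was -3.09 percentage points and did not pass the test (Fisher's exact test, two-sided, adjusted p = 0.45). In Rep.B it was -19.2 points and passed (Fisher's exact test, adjusted p = 0.000185). With sequence present once in the genome, the differences were -44.5 points in Rep.A and -46.3 in Rep.B. Both passed the test (Fisher's exact test, adjusted p = 5.82e-08 and 1.37e-12). The intervals cover counting error only. They and the tests count clusters as independent, although some clusters share a gene or the same letters. Of the 173 sites, 33 shared at least 15 bases with another intron site. PCR copies cannot be told from separate molecules in these data.

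RNase T1 leaves a G at the 3′ end of the fragments it makes, and exon clusters ended in G almost always. In Rep.A, 58.5% of intron clusters (48 of 82, 47.7 to 68.6) and 95.8% of exon clusters (704 of 735) ended in G (Fisher's exact test, adjusted p = 1.93e-19). In Rep.B, the shares were 53.5% (77 of 144, 45.3 to 61.4) and 95.4% (899 of 942; Fisher's exact test, adjusted p = 4.69e-36). Among clusters present once in the genome, intron clusters ended in G in 80% of cases in Rep.A and 59.7% in Rep.B, against 96.6% of exon clusters in either replicate, and both differences passed the test (Fisher's exact test, adjusted p = 0.000983 and 6.89e-17).

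The end differed by class. A last G was found in 50 of 68 sites present once (73.5%), in 18 of 19 copies of an mRNA, in 12 of 12 sites of other repeated sequence and in 9 of 10 of mitochondrial sequence. It was found in 2 of 30 sites of ribosomal sequence, in 3 of 16 of the sites shorter than 18 bases, in 3 of 12 with a run of A and in 0 of 6 of tRNA.

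The tetramers CATC and CACC were less frequent in intron clusters. CATC was in 24.4% of intron clusters in Rep.A (20 of 82) and 20.1% in Rep.B (29 of 144), against 43.9% and 42.6% of exon clusters (Fisher's exact test, adjusted p = 0.000778 and 3.08e-07). CACC was in 25.6% and 20.1% of intron clusters, against 42.2% and 41.5% of exon clusters (Fisher's exact test, adjusted p = 0.00517 and 1.05e-06). With sequence present once, the Rep.A differences were no longer past the threshold (CATC 37.1% against 44.4%, Fisher's exact test, adjusted p = 0.68, and CACC 37.1% against 41.0%, adjusted p = 0.92), while those of Rep.B were (22.4% against 44.4%, adjusted p = 0.000983, and 26.9% against 40.8%, adjusted p = 0.046). For CATC in Rep.A, the same loss was seen with a mean coverage of at least 10. One of the 2 tetramers was in 36 of the 68 sites present once (52.9%, 41.2 to 64.3), in 7 of 10 mitochondrial, 7 of 12 other repeated and 8 of 19 mRNA-copy sites, and in 1 of 30 sites of ribosomal sequence. In exon clusters it was 69.7% in Rep.A and 68.7% in Rep.B.

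More of the intron clusters had copies elsewhere. Of the clusters of 18 to 100 bases, 38 of 73 intron clusters in Rep.A (52.1%, 40.8 to 63.1) and 57 of 124 in Rep.B (46.0%, 37.4 to 54.7) had more than 1 exact copy in hg38. The shares in exon clusters were 21.4% (151 of 705) and 24.8% (225 of 909; Fisher's exact test, adjusted p = 1.98e-07 in Rep.A and 4.79e-06 in Rep.B). With copies of at most 1 mismatch counted, the intron shares were 63.0% (46 of 73) in Rep.A and 65.3% (81 of 124) in Rep.B. Those of exon clusters were then 38.0% and 41.8% (Fisher's exact test, adjusted p = 7.15e-05 and 2.2e-06). Sequence present once thus refers to exact copies only. The bowtie settings of the study draw 1 position at random for a read that fits several, so the coverage of such a site depends on how many copies share the reads.

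Exact matches to ribosomal RNA, the mitochondrial genome, a tRNA or a small RNA were almost absent from exon clusters. One was found in 24.1% of intron clusters in Rep.A (19 of 79 of at least 15 bases, 16.0 to 34.5) and 16.5% in Rep.B (23 of 139, 11.3 to 23.6). In exon clusters it was found in 0 of 725, for which the Wilson interval reaches 0.527%, and in 2 of 928 (0.216%; Fisher's exact test, adjusted p = 6.73e-20 and 7.76e-19). Clusters present once held no such match in either group, which the choice itself fixes for introns, since the site and the RNA gene are then 2 copies.

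The median coverage of intron clusters in Rep.A was 11.7 reads per base, against 13 for exon clusters. In Rep.B the medians were 19.1 and 32.9. There, 30.6% of intron clusters (44 of 144) reached the exon median, against 50.0% of exon clusters (Fisher's exact test, adjusted p = 2.13e-05), and in Rep.A 45.1% (37 of 82) against 52.0% (adjusted p = 0.26). With sequence present once, the difference passed in Rep.A too (34.3% against 57.8%, Fisher's exact test, adjusted p = 0.016). Against the upper quartile of exon clusters in place of the median, the direction in Rep.A turned, with 34.1% of intron and 25.6% of exon clusters reaching it, and in Rep.B the shares were 25% and 25.1%, and neither difference passed the test (Fisher's exact test, adjusted p = 0.13 and 1.0). The upper end of the introns lay far above that of the exons: the 90th percentile was 268 reads per base in introns and 28.8 in exons in Rep.A, and 296 and 70 in Rep.B.

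Clusters with 2 or more transition positions were 14.6% of intron clusters in Rep.A (12 of 82) and 10.4% in Rep.B (15 of 144), against 15.9% and 17% of exon clusters, and neither difference passed the test (Fisher's exact test, adjusted p = 0.87 and 0.058).

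**Figure D2:**
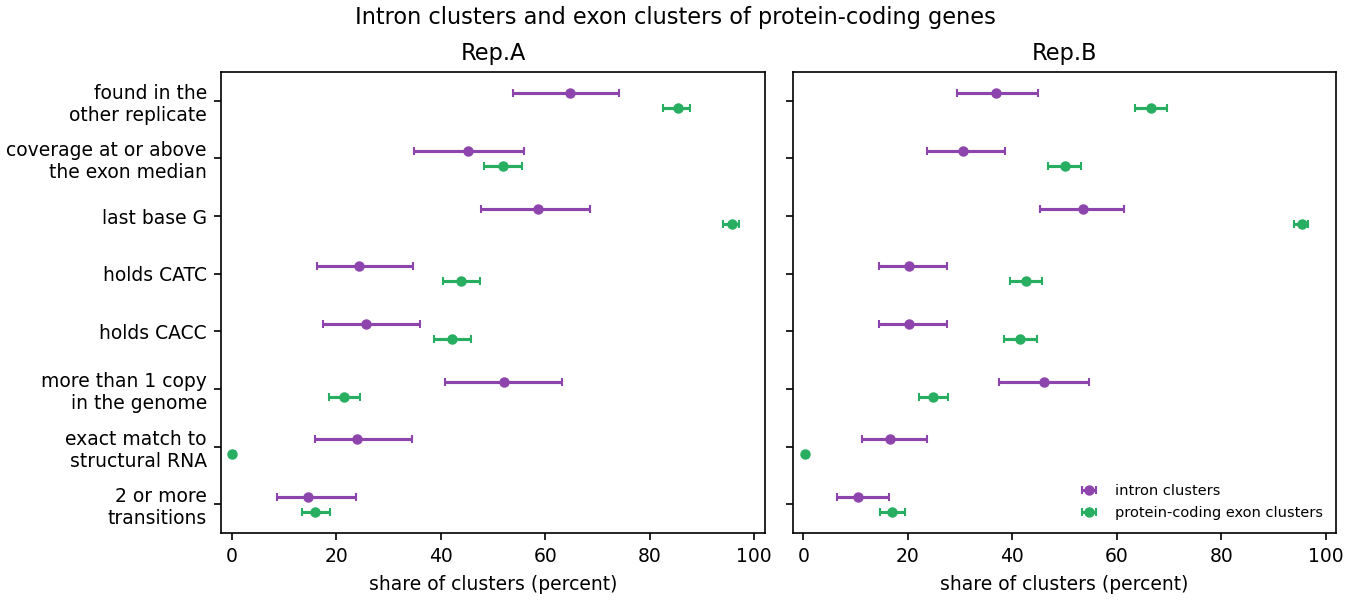
Share of clusters (horizontal axis, percent) with each of 8 features (vertical axis) in introns and in exons of protein-coding genes, in Rep.A (left) and Rep.B (right). Points are shares and bars are 95% Wilson intervals; the intervals of introns and exons do not overlap for last base G, which was 58.5% against 95.8% in Rep.A and 53.5% against 95.4% in Rep.B.

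The highest coverage of the intron sites lay in ribosomal sequence. Of the 10 sites found in both replicates with the highest coverage (geometric mean of both), 9 were of this class. Of 25 sites with at least 100 reads per base in either replicate, 17 were ribosomal, 3 mitochondrial, 3 shorter than 18 bases, 1 in a tRNA gene and 1 present once. The ribosomal sites held 80.1% of the summed coverage of intron sites (mean coverage times length) in Rep.A and 76.0% in Rep.B. Their median coverage was 172 reads per base in Rep.A (20 sites, 3.85 to 1111) and 203 in Rep.B (26 sites, 2.94 to 3130).

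The site in MAP3K3, which encodes a kinase of the MAP kinase cascade, was the highest of all, with 1111 reads per base in Rep.A and 3130 in Rep.B. This site lies at chr17:63629521-63629541, on the plus strand, in intron 1 of 16, 3139 bases before the next exon. Its 21 bases occur once in hg38 and differ from RNA45SN1 (chr21:8445539-8445559) by A14G and T21C, written as the base of the site, its position from the site's 5′ end and the base of the RNA. A genomic T where the RNA has C gives an aligned read the same letters as the transition by which clusters were called. No reads were examined here, and the source of the reads at this site was not tested.

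HFM1, which encodes a helicase of meiosis, held 2 sites in intron 4. The site at chr1:91387358-91387380 had 1022 reads per base in Rep.A and 2632 in Rep.B. The one at chr1:91387243-91387255 had 674 and 1661. The stretch around each was identical to RNA45SN1 over 305 and 180 bases. EIF3E, which encodes a subunit of translation initiation factor 3, had a site of 11 bases at 837 and 2246 reads per base, whose surroundings matched RNA45SN1 at 94.4% over 71 bases. A second site of EIF3E, in intron 9, was present once in the genome and was found in Rep.A only, at 4.0 reads per base.

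Several genes shared the same ribosomal letters. RYR2, a calcium release channel, AAMDC and SLCO5A1, an organic anion transporter family member, each held a site with the RYR2 letters shown above. The coverage in RYR2 was 306.5 reads per base in Rep.A and 796 in Rep.B, in AAMDC 333 and 706, and in SLCO5A1 444 and 1134. A cluster on chromosome X, outside genes, shared at least 18 bases with these sites and had 16.4 and 57.9, below all 3 introns. Its whole sequence occurs once in hg38, and those of the 3 intron clusters 6 times. In Rep.B, an antisense cluster on chromosome 10 that also shared at least 18 bases had 41.8. Each of the 3 genes held a second ribosomal site, at 265 in Rep.A only in RYR2, at 337 and 758 in AAMDC and at 527 in Rep.B only in SLCO5A1. NOTCH2, NBPF26, NBPF10, NOTCH2NLB and NOTCH2NLC, which come from duplicated segments of chromosome 1, each held a site with the NOTCH2NLC sequence or most of it. Their coverage in Rep.A was 57.6 to 105 reads per base and in Rep.B 156 to 260, with 2 transitions in all 5 sites and both replicates. The clusters with these letters on chromosome 21 had 274 to 311 reads per base (Rep.A) and 756 to 887 (Rep.B), above every one of the 5 introns. The NBPF26 site also lies within NOTCH2NLR, the NBPF10 site within NOTCH2NLA and the NOTCH2NLB site within NBPF14. In all, 33 sites shared at least 15 bases with another intron site, so that the 173 sites made 151 distinct sequences.

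**Figure D3:**
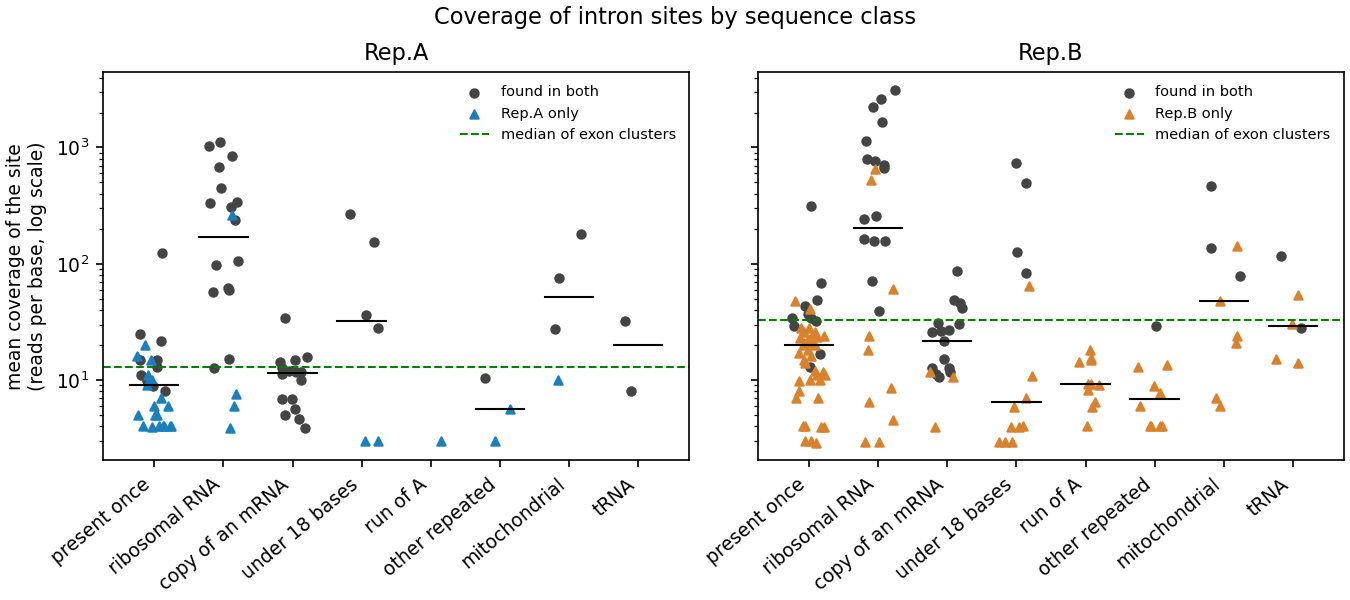
Mean coverage of each intron site (vertical axis, reads per base, log scale) by sequence class (horizontal axis) in Rep.A (left) and Rep.B (right). Points are sites, marked by whether they were found in both replicates, black lines are class medians and the dashed line is the median of exon clusters, 13 in Rep.A and 32.9 in Rep.B; ribosomal sites reach 1111 and 3130, and sites present once lie mostly below the dashed line.

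The sites that resembled but did not equal ribosomal or mitochondrial RNA differed from it mostly in 1 way. Of the 40 sites of these classes, 16 had at least 1 base that differed from the RNA, and 15 of these had at least 1 T where the RNA has C. In all there were 32 differing bases of 7 kinds, and 21 of them were T in the site and C in the RNA. No other kind was seen more than 3 times. The ABCC1 site, a repeat of the letters ggtggc, gave T3C, T9C and T15C. All 9 of the 16 whose sequence occurs once in hg38 had such a T. Clusters were called from T-to-C changes in the reads, so the calling itself favours such a T. These counts are therefore no test of where the reads came from. Beside MAP3K3 above, 4 of the 16 are shown here as examples chosen after their values were seen, with the differing bases in capitals. Of these 4, the DKK2 sequence occurs once in hg38.
ANKRD30BL (chr2:132255509-132255535, minus strand): TtgcagttaaaaagctcgtagttgAat
DKK2 (chr4:107236535-107236556, minus strand): caTttttggtaagcagaaTtgg
SLC16A9 (chr10:59688258-59688277, minus strand): aaggtagccaaatgcctTgt
PARD3 (chr10:34414839-34414855, minus strand): tagTgacgtTgcttttt

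In ANKRD30BL the differences were T1C and A25G, in DKK2 T3C and T19C, in SLC16A9 T18C, and in PARD3 T4C and T10C. ANKRD30BL held 3 sites, all of ribosomal sequence, and this one was found in Rep.B only, at 657 reads per base. The DKK2 site was found in Rep.B only at 61.0, the SLC16A9 site at 4.55 and the PARD3 site at 2.94. A second DKK2 site, also ribosomal and in Rep.B only, had 17.9. A match with at most 1 difference (15 or 16 bases), 2 (17 to 19) or 3 (20 or more) was found in 21 of 79 intron clusters in Rep.A and 32 of 139 in Rep.B, exact matches included. Of the exon clusters, 2 of 722 and 1 of 925 had one. The part that reads of ribosomal and mitochondrial RNA have in these intron clusters was not tested.

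The 10 sites of mitochondrial sequence had a median of 51.7 reads per base in Rep.A (4 sites, 9.93 to 181), while the median in Rep.B was 48.2 (9 sites, 6.0 to 470). Among them were sites in ERBB4, a receptor tyrosine kinase, KIAA0825, CDH13, a cadherin, and PABPC1, the cytoplasmic poly(A)-binding protein. All 4 were found in Rep.B only, at 21.0 reads per base in ERBB4, 48.2 in KIAA0825, 6.0 in CDH13 and 7.0 in PABPC1. The ERBB4 site, which differed from the mitochondrial genome by C11T, is shown with CACC in capitals.
ERBB4 (chr2:211774669-211774688, minus strand): accaaaaaCACCACCtctag

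Copies of an mRNA had the highest share of sites in both replicates of the 8 classes, 16 of 19. The stretch around these sites, 181 to 328 bases, matched the spliced mRNA of another gene at 86.9% to 100.0%, with a median of 96.0%. In 6 of the 19, the matched stretch ran across an exon junction of that mRNA without its intron. In the others it crossed no junction, so the match does not show whether the copied RNA was spliced. In 18 of 19 the site itself had the letters of the other mRNA, and for 13 the gene of origin held a cluster with the same letters in an exon of its own. KANK1 held a copy of the translation initiation factor mRNA EIF1, at 11.7 reads per base in Rep.A and 25.8 in Rep.B. The sequences of 4 others are shown, with CATC and CACC in capitals, as examples chosen after their values were seen. Their genes of origin encode ribosomal proteins or TPT1.
RBFOX2 (chr22:35838298-35838326, minus strand): taacaaccatataataaatCACCtcttcc
OOEP (chr6:73373040-73373063, minus strand): tcacgatcatgttaccatatcaag
SIK3 (chr11:117035746-117035770, minus strand): aaacCATCtcaataaacacattttg
IPMK (chr10:58212488-58212511, minus strand): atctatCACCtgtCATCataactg

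The copy in RBFOX2, a splicing regulator, had the letters of the ribosomal protein mRNA RPL41, in 10 places in hg38, and 15.8 reads per base in Rep.A and 49.0 in Rep.B. OOEP held a copy of the ribosomal protein mRNA RPL39 at 14.9 and 41.5, and RPL39 itself had 14.8 and 46.5. SIK3 held a copy of RPS27 at 10.0 and 21.8. In IPMK, an inositol phosphate kinase gene, the copy of TPT1 (89.9% over 328 bases, across 2 exon junctions) had 11.3 and 30.2, and TPT1 had 30.2 in Rep.B. Over all clusters that shared at least 18 bases with an mRNA-copy site, the coverage of the site divided by that of the other cluster had a median of 0.93 in Rep.A (27 pairs) and 1.0 in Rep.B (44 pairs). A site could give several pairs. A pair of intron sites, such as ANKRD42 and BDKRB2 at 10.7 reads per base each in Rep.B, was counted in both directions. Reads that fit several copies were placed at random, so these ratios cannot show which copy the reads came from. Single pairs lay apart in either direction. The LSAMP site had 3.83 and 11.3 reads per base and BZW1, the gene of origin, 11 and 29. The KDM4C site had 6.82 and 15.3 and RBMX 5.95 and 5.86.

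The site in SRP19 differed from the gene of origin. SRP19 encodes a protein of the signal recognition particle, and the site, at chr5:112885920-112885942 in intron 4 of 4, had 34.0 reads per base in Rep.A and 86.0 in Rep.B. The stretch around it matched the mRNA of XBP1, a transcription factor of the unfolded protein response, at 86.9% over 312 bases, but the site differed from it by C6A, A12G and C16T and occurs once in hg38. It was the highest of the mRNA copies. The sequence is shown with its flanks, the site in capitals.
SRP19: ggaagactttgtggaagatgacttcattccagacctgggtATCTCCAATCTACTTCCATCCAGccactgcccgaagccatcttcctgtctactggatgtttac

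In all, 5 sites overlapped tRNA genes that lie inside introns. These genes are in the RefSeq table of GRCh38.p14 and not among the GENCODE genes used for the rule. AGBL5, which encodes a carboxypeptidase, held 2, in different tRNA genes. The higher of them, at chr2:27050852-27050886, had 32.0 reads per base in Rep.A and 116 in Rep.B, with 2 transitions in both. Of its 35 bases, 19 were the end of TRY-GTA2-1, a tyrosine tRNA gene with an intron of its own, and 16 ran past the end of that gene. The sequence is shown with the bases before it, the site in capitals, so that the run of T behind the gene, where RNA polymerase III stops, can be seen.
AGBL5: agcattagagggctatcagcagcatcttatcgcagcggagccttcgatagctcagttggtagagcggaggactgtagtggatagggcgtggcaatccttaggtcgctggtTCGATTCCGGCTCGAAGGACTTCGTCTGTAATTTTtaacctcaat

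The second AGBL5 site, in TRA-AGC8-1, was found in Rep.B only, at 30.1 reads per base, with 3 bases past the gene's end. The others were ZFHX3 (TRK-TTT1-1, 8.0 in Rep.A and 28.0 in Rep.B), ELF1 (TRE-TTC1-2, 53.8 in Rep.B only) and AIM2 (TRR-TCT4-1, 14.0 in Rep.B only), all within the gene. THAP8 held a site with tRNA letters at 15.1 in Rep.B only. None of the 6 ended in G.

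Sites with a run of A were almost a feature of 1 replicate. Of the 12, 11 were found in Rep.B only and 1 (ANKS1B) in Rep.A only. The longest run of A was 29 to 45 bases, with a median of 38.5, and the sites were 35 to 58 bases long, against a median of 22 over all sites. Their coverage was 3.98 to 18.2 reads per base in Rep.B. The site in SLC22A16, a carnitine transporter gene, is shown to give the letters of such a run.
SLC22A16 (chr6:110473479-110473532, minus strand): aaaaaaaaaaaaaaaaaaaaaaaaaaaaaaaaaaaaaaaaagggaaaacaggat

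Some high sites matched none of the RNAs compared within the limits used, 4 of them in the class shorter than 18 bases and 1 in the class present once. At most 1 difference from ribosomal or mitochondrial RNA was allowed up to 16 bases and 2 from 17 to 19. A site with more differences counted as no match. GFI1, which encodes a transcriptional repressor of blood cell development, had a site of 16 bases at 155 reads per base in Rep.A and 492 in Rep.B. FAM228A had one of 17 bases at 268 and 740, GALNTL6 one at 36.5 and 126, and AZI2 one at 27.9 and 82.9. Each was found in both replicates, but they are too short for the copies in the genome to be counted. RGS7BP had a site of 19 bases, present once, although the Rep.A cluster alone had 2 copies, at 124 and 311. The letters are given since no source was assigned.
GFI1 (chr1:92482621-92482636, minus strand): tgtcgcttagattcgt
FAM228A (chr2:24189907-24189923, plus strand): tcgggggacggactggg
GALNTL6 (chr4:172450727-172450743, plus strand): gagctaatacgtgcatc
AZI2 (chr3:28332093-28332109, minus strand): actagctatgtggaggt
RGS7BP (chr5:64523390-64523408, plus strand): gtgaaataccactattttt

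The sites present once had a median of 8.97 reads per base in Rep.A and 20 in Rep.B, below the exon medians of 13 and 32.9. Pooled over all their bases, they held 35.4% C and 9.94% G. HP1BP3, which encodes a heterochromatin-associated protein, was the highest after RGS7BP, with 25 reads per base in Rep.A and 68.0 in Rep.B. ITGB1, the gene of integrin beta 1, had 21.7 and 48.3, at chr10:32902807-32902836 in intron 17 of 17. BTAF1, an ATPase that acts on the TATA-binding protein, had 10.0 and 43.0. All 3 sites ended in G.

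GMDS, an enzyme of GDP-fucose synthesis, had 11 and 37.0, and its site lay 50722 bases from the nearest exon. PMF1-BGLAP, a read-through gene whose first part is the kinetochore gene PMF1, had 13 and 34.0. ABCF2-H2BK1, also a read-through gene, had 15 and 33.8, and TRAPPC12, a vesicle tethering subunit, had 15 and 29.0. TMEM39B had 8.0 and 32.3. CCDC40, a gene of motile cilia, had 8.94 and 16.8, and MAPKAP1, a subunit of the mTORC2 kinase complex, had 10.0 and 13. All but CCDC40 and MAPKAP1 exceeded 28 reads per base in Rep.B.

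Some of them had 2 or more transition positions, and whether each marks a crosslink was not tested. TRAPPC12, GMDS and ABCF2-H2BK1 had 2 transitions in both replicates. They made up 3 of the 9 intron sites with that property, next to the 5 NOTCH2-related ribosomal sites and AGBL5.

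The sites present once and found in 1 replicate were lower. The 19 in Rep.A only had a median of 5.0 reads per base (3.95 to 20), and the 38 in Rep.B only a median of 15.5 (2.89 to 48.0). The 11 in both had medians of 13 and 34.0. A last G was found in 10 of the 11 sites in both, in 16 of 19 in Rep.A only and in 24 of 38 in Rep.B only. CATC or CACC was in 8, 12 and 16 of them. Examples with tetramers in genes of RNA-binding proteins, chosen after their values were seen, were RBM5 (20 in Rep.B only) and DDX46 (28.0 in Rep.B only).
RBM5 (chr3:50112591-50112613, plus strand): tcccttCACCaaCACCtccttcc
DDX46 (chr5:134839265-134839286, plus strand): cacttaaCACCaaattccaatg

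The sites lay deep in introns. The median distance to the nearest exon of a host gene was 3142 bases, with a range of 0 to 199349. Only 7 of 173 sites lay under 100 bases from an exon, 39 lay under 1000 and 42 lay at 10000 or more. The site in RBM5 touched an exon of another transcript of that gene. In the transcript with the longest coding sequence, 161 sites could be placed, in introns with a median length of 22171 bases. With each intron cut into 3 equal parts, 47 lay in the part next to the 5′ splice site, 59 in the middle and 55 in the part next to the 3′ splice site, and 37 were in the first intron and 17 in the last one. Distances were shortest for tRNA (median 127 bases) and longest for runs of A (14509), and the ribosomal sites had a median of 3869.

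**Figure D4:**
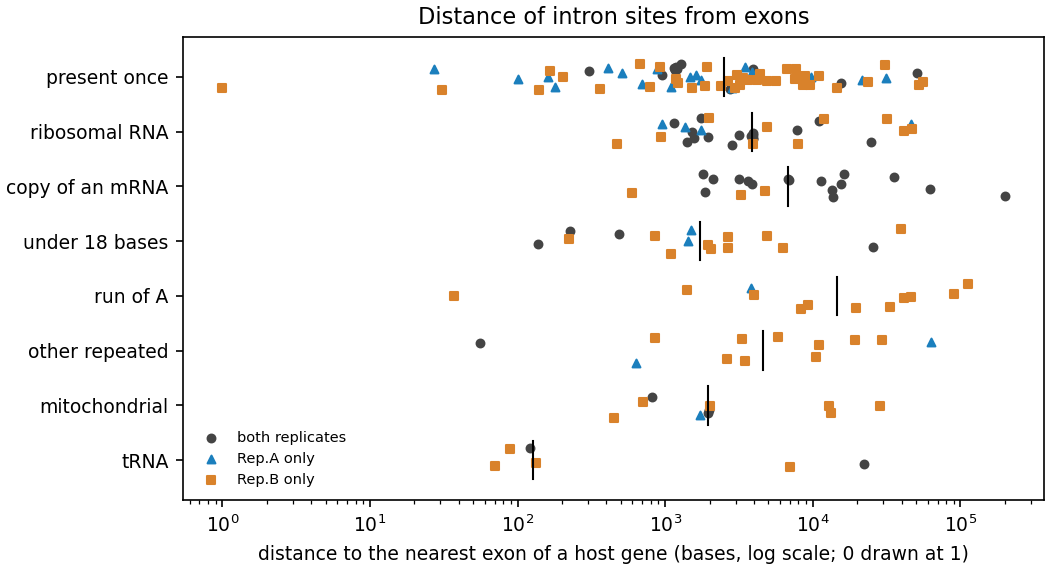
Distance of each intron site from the nearest exon of a host gene (horizontal axis, bases, log scale, with 0 drawn at 1) by sequence class (vertical axis). Points are sites, marked by the replicates they were found in, and black lines are class medians; the medians run from 127 bases for tRNA to 14509 for runs of A, and 7 sites of all classes lie under 100.

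Of the 156 host genes, 9 (5.77%) also had an exon cluster, beside 879 of all 20033 protein-coding genes (4.39%). Among the 9 were CLTC, RPL27A, SMIM7, ASXL2 and ZFHX3. By family, the host genes are given beside the genes with an exon cluster, 156 and 879 in all, as counts with no test of the difference. Ribosomal protein genes were hosts of 2 sites (RPL27A and RPS24, each in Rep.B only), and 30 genes of that family had exon clusters. Translation factors were hosts of the 2 EIF3E sites, with 14 genes in exons. The splicing factor family had 1 (PRPF18, beside 7), RNA helicases 1 (DDX46, beside 3), zinc finger genes 1 (ZNF217, beside 28), the MAP kinase cascade 1 (MAP3K3, beside 0) and solute carriers 4 in 3 genes (beside 15). Expression of the host genes was not used here. ANKRD30BL held 3 sites, and 10 genes held 2: AAMDC, AGBL5, DKK2, EIF3E, HFM1, KAZN, RPS6KA2, RYR2, SLC24A4 and SLCO5A1.

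Coverage was higher in Rep.B. For the 53 sites in both replicates, the median coverage in Rep.B was 2.62 times that in Rep.A, and for 627 pairs of exon clusters it was 2.67 times. On the log2 scale the intron sites had a median of 1.39 (0.38 to 2.21) and the exon pairs 1.42. No depth correction was made, and Rep.B, with the higher coverage, also held more sites found in 1 replicate.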

How the data were processed

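The 2 cluster tables, 1 for each replicate of YB-1 PAR-CLIP in HEK293T wt cells, were used as deposited. The authors trimmed reads (cutadapt 2.10) and aligned them to hg38 (Bowtie 1.0.0, versions from the submitters' processing notes), with 1 position drawn at random for a read with several, and called clusters in each replicate with wavClusteR. Mean coverage per cluster is a signal in reads per base that the authors did not scale for depth. The deposited count columns give transition positions and T bases per cluster, and the deposited fraction is the share of these T bases with a transition. The log odds deposited by the authors are a score of the mixture model. The cluster tables hold no library totals, and none were used here.

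Clusters were assigned with GENCODE release 44, and tRNA and ribosomal RNA genes came from the RefSeq table of GRCh38.p14. The deposited sequences are of the plus strand, so those of minus-strand clusters were complemented. Exact copies in hg38 were counted for 18 to 100 bases, and windows of 150 bases on each side were compared with RNAs by blastn 2.17.0. Sequence classes were set in this order: at least 70% A with a run of 12, ribosomal, mitochondrial, tRNA, a near match to ribosomal or mitochondrial RNA, an mRNA copy (an alignment of at least 100 bases, to at most 5 genes), repeated, present once. Clusters of the same letters shared at least 18 bases.

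Shares were compared by Fisher's exact test (two-sided, scipy 1.17.1) with Benjamini-Hochberg adjustment over 16 tests, and 95% Wilson intervals. The test script was tested on simulated data. The alternatives were a coverage of at least 10, sequence present once, at most 60 bases, each gene once, at least 50 bases from exons, exons of protein_coding transcripts only, copies with at most 1 mismatch, a reciprocal overlap of 50%, a score at or above the median, the upper quartile of coverage, and each replicate left out. The near match was added after seeing the data. Genes named were hosts of the 10 highest sites in both replicates, of the 15 highest present once, of 2 or more sites or of 2 transitions in both replicates, MAP3K3, HFM1 and EIF3E, and hosts in fixed families. Other genes named, among them those of the mRNA copies, the tRNA genes and the short sites, were chosen after their values were seen. Some results that this rule covers are not reported here. The members and lists were chosen with earlier results of these data known. The share of repeat-masked bases was not computed, because the reference used here does not mark repeats.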

Additional observations from a re-analysis of the deposited data

How the results depend on the processing

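Of 100 planned and 2 added recomputations under other settings, 86 kept their direction and side of the threshold or stayed within 1.5 times. Values are intron minus exon in percentage points. With a coverage of at least 10, the share found in the other replicate in Rep.A was -3.09 and CATC in Rep.A -13.7, neither past the threshold, and 2 or more transitions in Rep.A turned to 3.98. With sequence present once, coverage in Rep.A was -23.5 and passed, CATC in Rep.A was -7.26 and CACC in Rep.A -3.83 and neither passed, and structural RNA was 0.0 in both replicates, because such sequences have several copies. At the upper quartile, coverage in Rep.A turned to 8.57 and in Rep.B was -0.0531, neither past the threshold. The cause was not tested for the other changes. The number of sites was 109 with a coverage of at least 10, 88 with sequence present once (14 in both replicates), 98 with a score at or above the median (26 in both), and 82 to 144 with 1 replicate left out. The near match, added after seeing the data, changed no call. The 10 alternatives on repeat-masked bases were not run. No paired analysis was possible because there was 1 condition. Coverage is not scaled for depth, and reads with several positions were placed at random, so the coverage of a repeated site is not its own.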
